A study of Mus musculus with 2 samples.

Results

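The genes described here belong to the interferon response and the Schlafen family. They were chosen by name: every probe whose gene symbol in the platform annotation begins with Irf and a digit, Ifi, Gbp and a digit, Oas, Isg, Stat and a digit, or Slfn, or equals Mx1 or Mx2. The rule used no measured value and found 56 probes of 55 genes, among 16631 named probes of 16446 genes. Of these genes, 45 were measured, meaning that a probe lay above background in all 4 channels, against 13630 of all named genes. The RNA came from the hippocampus of mice in 3 groups: wild type; AtrxdE2, with the AtrxΔE2 allele of Atrx, which encodes a chromatin remodeller; and AtrxdE2+TMPyP4, with that allele and the porphyrin TMPyP4, injected intraperitoneally at 30 mg/kg 2 times a week from postnatal day 30 to day 90. RNA was pooled from 5 mice per group. Each mutant pool (Cy3) was hybridised with wild type (Cy5) on 1 array, with no replicate and no dye swap, so dye and genotype cannot be told apart and no p-value can be given. The age at sampling, the sex of the mice, a vehicle for the untreated groups, and whether both arrays carried the same wild-type pool are all unstated in the labels. In whole tissue, fewer cells of a type and less RNA per cell cannot be told apart.

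Interferons are secreted proteins that warn cells of virus or of misplaced nucleic acid. Type I interferons act through receptor-bound Jak kinases, which phosphorylate STAT proteins; STAT2 and IRF9 are subunits of the resulting complex ISGF3, which binds the interferon-stimulated response element (ISRE) of its target genes. Interferon gamma acts at a different element, GAS, and induces Irf1 and the guanylate-binding proteins. The induced proteins include inhibitors of viral translation (Ifit), blockers of membrane fusion (Ifitm), the 2′-5′ oligoadenylate synthetases (Oas), the Mx GTPases and the Schlafen proteins. In brain, microglia, vessel cells, astrocytes and neurons can all respond.

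The promoters of members carry these elements more often than promoters in general, and a few are shown because their genes recur in the results. RefSeq windows of 300 bases (250 before to 50 after the start, GRCm38.p6) were matched by current symbol for 49 of the 55 genes. The ISRE core, GAAA followed by 2 bases of any kind and GAAA again, was searched on both strands and found in a window of 18 of these 49 genes (36.7%), against 3.99% of 27025 genes with a window. The GAS letters TTCNNNGAA, which read alike on both strands, were in 12 of 49 (24.5%), against 9.55%. In the sequences below, written 5′ to 3′ along the gene's strand, capitals mark the match; the first 6 genes carry the ISRE core and Irf1 the GAS letters.
Slfn8, chr11:83020829-83020878, minus strand: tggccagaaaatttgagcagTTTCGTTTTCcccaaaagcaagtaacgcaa
Stat2, chr10:128270256-128270305, plus strand: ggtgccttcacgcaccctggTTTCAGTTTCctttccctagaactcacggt
Ifit3, chr19:34583353-34583402, plus strand: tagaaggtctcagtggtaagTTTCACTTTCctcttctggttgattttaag
Ifit1, chr19:34640765-34640814, plus strand: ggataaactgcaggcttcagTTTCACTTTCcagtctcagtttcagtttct
Gbp2, chr3:142620584-142620633, plus strand: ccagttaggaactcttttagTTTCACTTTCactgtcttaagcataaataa
Ifitm2, chr7:140955978-140956027, minus strand: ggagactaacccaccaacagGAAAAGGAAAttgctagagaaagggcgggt
Irf1, chr11:53769904-53769952, plus strand: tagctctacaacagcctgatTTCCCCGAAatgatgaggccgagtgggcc
Ifit3, Ifit1 and Gbp2 share the same 10 letters in the match, and Ifit1 and Ifit3 each hold a second match, TTTCAGTTTC, nearer to the start. The 16 measured members with an ISRE core had a median log2 ratio over wild type of 0.14 in AtrxdE2 and of 0.065 in AtrxdE2+TMPyP4, and their median difference between the arrays was -0.035. The 24 without one had medians of 0.040, 0.044 and -0.023. Both sets ranged from members below 0 to members above 0 in every comparison. A match describes letters in a window and is no evidence of binding.

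Values are given on 2 scales. The scaled signal is the spot's intensity above the mean of the blank spots, as a percentage of the median measured probe of that channel. As a measure of transcript it is read within a gene across channels, never between genes. The log2 ratio is mutant over wild type after background correction and loess, and its offset of 50 pulls the ratios of dim probes towards 0. Of the 56 member probes, 52 and 51 were above background in wild type and AtrxdE2 on the first array. On the second, 47 and 48 were above it in wild type and AtrxdE2+TMPyP4. Of all probes, 89.9% and 86.5% were above background on the first array, then 83.6% and 83.3%. Only 9 of the 45 measured members lay above the median signal, so several members are also given as they stand in the authors' value table, made without offset or loess. As there is no replicate error, each ratio is set against the SD over those 500 measured genes closest to it in signal, called the local SD. The wild-type channels of the arrays differed with an SD of 0.29 log2 units over 18664 measured probes, after quantile normalization of single channels, and the Cy3 channels with an SD of 0.38. Of 10 markers of hippocampal neurons, 9 were measured, with summed scaled signals between 5217 and 5834 in the 4 channels. Bright genes weigh most in such sums, and single genes moved in both directions. Neurod2 was at 0.29 in AtrxdE2 and -0.34 in AtrxdE2+TMPyP4, and Ociad2 at -0.28 and 0.16. The 9 measured markers of neurons in general had sums of 33990 and 30020, then 31882 and 38238, with 3 of 9 above 0 on each array. Snap25 was at -0.67 and then 0.59, while Syp went the other way, at 0.43 and then -0.17. Syt1, also bright, was at -0.21 and -0.28.

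**Figure D1:**
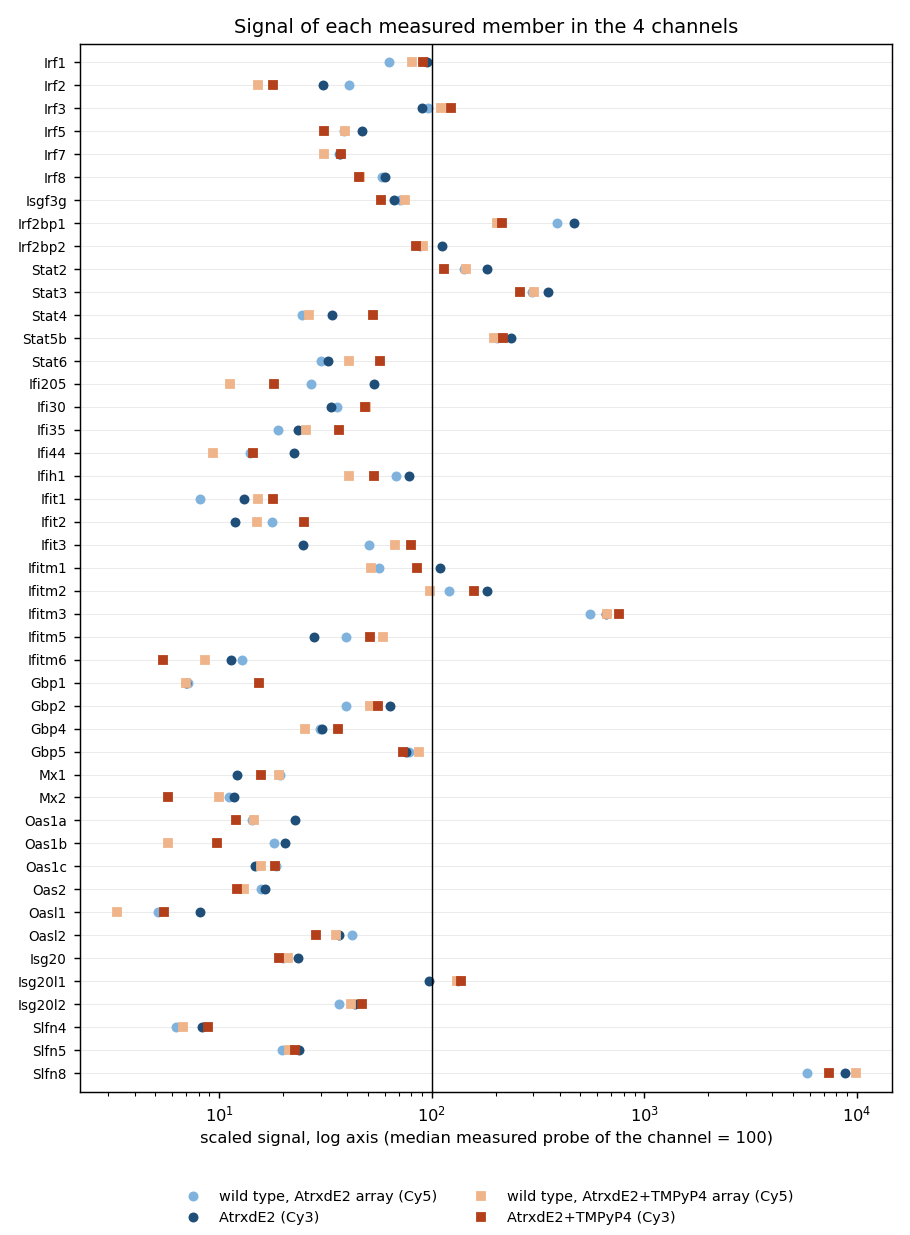
Scaled signal of the 45 measured members (rows, grouped by family) in the 4 channels, on a log axis; the vertical line marks the median measured probe of a channel, 100, and positions are to be compared within a row. In Slfn8 both wild-type channels lie at the ends of the row, at 5850 and 9862, with both mutant pools between them.

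In AtrxdE2 over wild type, no member reached a 2-fold difference in either direction, where 0.022% of all 13630 measured genes were at least 2-fold higher and 0.00734% lower. Slfn8 alone was past 1.5-fold, at a log2 ratio of 0.61 (local SD 0.26), where 0.44% of all genes were 1.5-fold higher and 0.66% lower. Next came the membrane proteins Ifitm1 at 0.56 (SD 0.18) and Ifitm2 at 0.42 (SD 0.20), the nuclear protein gene Ifi205 at 0.40 (SD 0.12) and the transcription factor gene Irf1 at 0.35 (SD 0.20). The lowest were Ifit3 at -0.40 (SD 0.16), Isg20l1 at -0.30 (SD 0.21), Ifitm5 at -0.19 (SD 0.15), Mx1 at -0.16 (SD 0.098) and Irf2 at -0.16 (SD 0.11). The median over measured members was 0.045 (SD 0.20 over genes), with 29 of 45 above 0 (64.4%), against a median of -0.0029 and 49.3% above 0 over all measured genes. By the authors' value table Ifit3 (-1.07) was the 1 member 2-fold lower and none was higher, where 0.792% and 0.77% of all genes were. Past 1.5-fold there, 7 members were higher (15.6%: Gbp2, Ifi205, Ifi44, Ifit1, Ifitm1, Oas1a and Oasl1), against 4.11% of all genes. A further 3 were lower (6.67%: Ifit2, Ifit3 and Mx1), against 5.17%. These shares are not at like signal, as most members are dim and this table has no offset to pull dim ratios towards 0.

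In AtrxdE2+TMPyP4 over wild type, again no member reached 2-fold or 1.5-fold, where 0.161% of all genes were at least 2-fold higher and 0.0293% lower, and 0.902% and 0.462% were past 1.5-fold. The highest were Ifitm2 at 0.49 (SD 0.22), Ifitm1 at 0.41 (SD 0.18), Stat4 at 0.40 (SD 0.18), Stat6 at 0.24 (SD 0.17) and the RNA sensor gene Ifih1 at 0.20 (SD 0.20). The lowest were Slfn8 at -0.53 (SD 0.28), Stat2 at -0.23 (SD 0.21), Stat3 at -0.20 (SD 0.22), Isgf3g (now Irf9) at -0.18 (SD 0.17) and Gbp5 at -0.13 (SD 0.18). With median centring in place of loess, which moved the median of all measured genes to 0.18 on this array, Slfn8 stood at 0.11, Stat3 at 0.18 and Stat2 at -0.0056. The median over members was 0.048 (SD 0.18), with 30 of 45 above 0 (66.7%), against 0.0095 and 52.8% over all genes. By the authors' value table Gbp1 (now Gbp2b, 1.09) was the 1 member 2-fold higher and none was lower, where 1.53% and 0.499% of all genes were. Past 1.5-fold there, 8 members were higher (17.8%: Gbp1, Ifi205, Ifit2, Ifitm1, Ifitm2, Oas1b, Oasl1 and Stat4), against 5.22% of all genes. A further 2 were lower (4.44%: Ifitm6 and Mx2), against 3.06%, again not at like signal. Oasl1, counted on both arrays, had scaled signals of 5.14 and 8.12, then 3.29 and 5.49. The background limits of these channels were 2.98 and 5.25, then 2.56 and 4.16.

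The difference of both ratios, AtrxdE2+TMPyP4 minus AtrxdE2, put 1 member past 2-fold: Slfn8 at -1.14 (SD 0.31). Of all genes, 0.103% were at least 2-fold lower and 0.213% higher. On the single-channel scale the mutant (Cy3) channels of Slfn8 differed by -0.36 log2 units and its wild-type channels by 0.70. With median centring its difference was -0.71, short of 2-fold. No other member was past 1.5-fold, where 1.14% of all genes were lower and 2.1% higher. After Slfn8 the lowest were Stat2 at -0.48 (SD 0.28), Stat3 at -0.39 (SD 0.31), Ifi205 at -0.27 (SD 0.16) and Irf2bp2 at -0.26 (SD 0.28). The highest were Ifit3 at 0.57 (SD 0.21), Isg20l1 at 0.36 (SD 0.27), Ifit2 at 0.32 (SD 0.15), Stat4 at 0.25 (SD 0.22) and Stat6 at 0.21 (SD 0.20). In the authors' value table Ifit2 (1.31), Ifit3 (1.28) and Gbp1 (1.17) were past 2-fold higher and Slfn8 (-1.0) lower, where 3.02% and 1.58% of all genes were. Past 1.5-fold there, 5 members were higher (11.1%: these 3, Irf2 and Oas1b), against 10.2% of all genes. A further 5 were lower (11.1%: Slfn8, Stat2, Irf5, Mx2 and Oas1a), against 6.65%, again not at like signal. The median over members was -0.024 (SD 0.26), with 19 of 45 above 0 (42.2%), against 0.015 and 52.7% over all genes. The difference is built from the ratios above, and all 3 comparisons share channels, so they are not independent of each other.

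**Figure D2:**
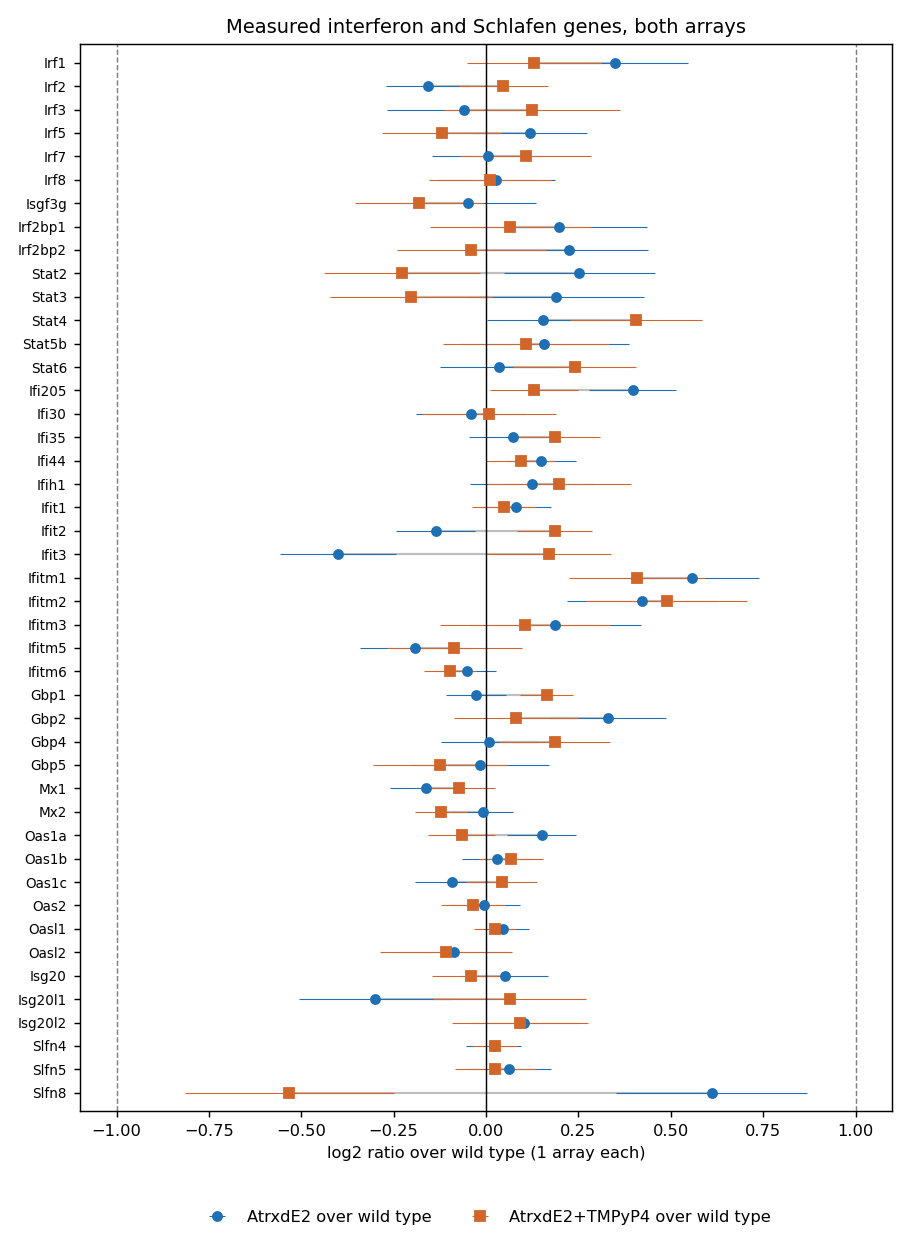
Log2 ratio over wild type of each measured member on the AtrxdE2 array (blue circles) and the AtrxdE2+TMPyP4 array (orange squares); horizontal bars are the local SD over 500 genes of like signal and dashed lines mark 2-fold. Slfn8 spans the widest distance, from 0.61 to -0.53 (0.11 with median centring), and Ifitm1 and Ifitm2 lie right of 0 on both arrays.

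Among the transducers, Stat2, the STAT that is particular to type I and type III interferon signalling and a subunit of ISGF3, had scaled signals of 142 in wild type and 182 in AtrxdE2 on the first array, and of 146 in wild type and 114 in AtrxdE2+TMPyP4 on the second. The wild-type values lay close together (0.017 log2 units apart on the single-channel scale), with the untreated mutant above both and the treated mutant below both. Stat3, which carries the signal of interleukin-6 type cytokines, had the same order: 295 and 354 on the first array, 304 and 260 on the second. Its wild-type channels differed by 0.040 log2 units and its Cy3 channels by -0.39, against -0.49 for the Cy3 channels of Stat2. For both genes the treated pool was thus also lower without the wild-type channels, against an SD of 0.38 over all measured probes for these channels.

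Stat4, the transducer of interleukin-12 signals, had 24.5 in wild type and 34.1 in AtrxdE2, then 26.5 in wild type and 52.8 in AtrxdE2+TMPyP4, so that both mutant pools lay above both wild-type values. Stat6, which acts for interleukin-4, had 30.00 and 32.4 on the first array, then 40.6 and 56.9 on the second, where the treated pool was the highest of the 4 and wild type itself differed by 0.20 log2 units between arrays. In the authors' value table the treated pool stood at 0.95 for Stat4 and 0.44 for Stat6. Stat5b was at 0.16 and 0.11, and all 5 measured Stat genes were above 0 in AtrxdE2, against 3 of 5 in AtrxdE2+TMPyP4. Stat5a was above background only on the first array, in both channels.

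Interferon regulatory factors stayed near 0 as a family, with a median of 0.0056 over 7 measured genes in AtrxdE2 and 0.047 in AtrxdE2+TMPyP4. Irf1, a factor that interferon gamma induces, had 62.7 in wild type and 94.7 in AtrxdE2, then 80.9 in wild type and 91.3 in AtrxdE2+TMPyP4. Both mutant pools lay above both wild-type values, and the wild-type channels differed by 0.21 log2 units, about the size of the Irf1 difference between the mutant ratios (-0.22). The ratio of Irf1 in AtrxdE2+TMPyP4 was 0.13, and -0.018 with local background. Isgf3g (Irf9), the DNA-binding subunit of ISGF3, had 71.0 and 66.1 on the first array, then 75.02 and 57.7 on the second, lower in the mutant on each; with median centring its ratio in AtrxdE2 was 0.0017. Irf2, a repressor that competes with Irf1, had 40.8 and 30.9, then 15.2 and 17.9: both channels of the second array were below both of the first, so its values separated by array. Its ratio in AtrxdE2+TMPyP4, 0.047, became -0.14 with median centring. Its single-channel shift was -0.42 in wild type and -0.21 in Cy3. Irf3 and Irf7, which switch on interferon genes after nucleic acid sensing, were at -0.061 and 0.0056 in AtrxdE2 and at 0.12 and 0.11 in AtrxdE2+TMPyP4. Irf5 had 0.12 and -0.12, and the microglial and myeloid factor Irf8 had 0.027 and 0.011. Irf4 was below background in AtrxdE2 and above it in the other 3 channels, at least 1.09-fold higher in wild type on the first array.

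Irf2bp1 and Irf2bp2, corepressors that bind Irf2 and enter the rule by name, were at 0.20 and 0.22 in AtrxdE2 and at 0.066 and -0.039 in AtrxdE2+TMPyP4 (Irf2bp2 at 0.096 with median centring). Irf2bp1 had 389 and 468 on the first array, then 202 and 215 on the second, a shift of -0.80 log2 units in wild type and of -0.96 in Cy3. This was the widest wild-type shift among members, larger than any of its ratios over wild type. Irf2bp2 had 88.4 in wild type and 112 in AtrxdE2, then 91.0 and 84.5, and its wild-type channels differed by 0.020.

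Of the Ifit genes, whose proteins bind viral RNA and hold back its translation, Ifit3 stood apart on the first array. Its scaled signals were 50.4 in wild type and 24.8 in AtrxdE2, then 67.0 in wild type and 79.99 in AtrxdE2+TMPyP4. The untreated mutant was the lowest of the 4 values and the treated mutant the highest. The Cy3 channels alone differed by 0.79 log2 units, against 0.22 for wild type. Ifit2 had 17.7 and 11.9 on the first array, then 15.1 and 25.1 on the second, with log2 ratios of -0.14 and 0.19 (-0.62 and 0.69 in the authors' value table), and showed the same order with wild-type channels only -0.013 apart. Ifit1, whose promoter carries the same elements as that of Ifit3, did not share it: its ratios were 0.082 and 0.048, with 8.14 and 13.1 on the first array, then 15.2 and 18.01 on the second. Ifit1 and Ifit2 are dim, and their ratios move with the offset.

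Ifitm proteins sit in membranes and block the fusion of enveloped viruses; Ifitm1, Ifitm2 and Ifitm3 are the interferon-induced ones, and Ifitm5 belongs to bone. Ifitm1 had 56.8 in wild type and 109.6 in AtrxdE2, then 51.98 in wild type and 85.4 in AtrxdE2+TMPyP4. Ifitm2 had 121 and 182, then 98.5 and 159. For both genes each mutant pool lay above both wild-type values, and over the alternatives to the processing the ratio of Ifitm1 ranged from 0.35 to 0.95 in AtrxdE2 and from 0.089 to 0.74 in AtrxdE2+TMPyP4. That of Ifitm2 ranged from 0.42 to 0.58 and from 0.41 to 0.71. Ifitm3 was at 0.19 and 0.11, within the SD of 0.23 on each array, with 553 and 658 on the first array, then 667 and 759 on the second. Ifitm5 (39.6 and 27.9, then 59.2 and 51.1) and Ifitm6 (12.8 and 11.4, then 8.56 and 5.45) were lower in the mutant on each array.

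Markers of meninges and fibroblasts moved beside Ifitm1 and Ifitm2. Of 14 measured, 13 were above 0 in AtrxdE2 (median 0.34) and 11 in AtrxdE2+TMPyP4 (median 0.67), with summed scaled signals of 1914 and 2857 on the first array, then 2012 and 3111 on the second. Endothelial markers had 8 of 11 above 0 in each, with medians of 0.073 and 0.022 and sums of 4655 and 5749, then 4429 and 4792. Choroid plexus markers had sums of 3286 and 3720, then 3303 and 47596, with 8 of 10 measured at least 2-fold higher in AtrxdE2+TMPyP4. Ttr made up 38724 of the last sum and was at 1.59 in AtrxdE2 and 6.59 in AtrxdE2+TMPyP4, while Enpp2 made up 3068 of the first. Aqp1, Cldn2 and F5 of that list were not above background in all channels. Microglial markers had 4 of 15 above 0 on each array (medians -0.054 and -0.11), with sums of 6770 and 6420, then 5580 and 5389. P2ry12 was the lowest of them in AtrxdE2, at -0.70, and Msr2 (now Fcrls) the highest in AtrxdE2+TMPyP4, at 0.62. T and NK cell markers had 6 of 14 measured, with sums of 158 and 147, then 111 and 110, and with Cd3e, Cd3g, Cd8b1, Il7r and Nkg7 among those not above background. Markers of B cells had sums of 226 and 273, then 306 and 215 (5 of 7 measured, Ms4a1 and Blk not), with 3 and then 2 of 5 above 0. Igh6 (now Ighm) made up 117 and 163, then 187 and 99.2 of these sums, and was at 0.33 and then -0.63. Those of neutrophils and monocytes (6 of 12 measured) had sums of 230 and 325, then 328 and 295, with 5 of 6 above 0 in AtrxdE2 (median 0.20) and 1 of 6 in AtrxdE2+TMPyP4 (median -0.067). Of these, S100a9 stood at 0.74 and then -0.20, with a difference of -0.93 (SD 0.15). Ly6g of the same list went the other way, at -0.28 and then 0.094, with a difference of 0.38 (SD 0.21). The part of any of these cells in the values of the members was not tested.

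Guanylate-binding proteins are GTPases that attack the vacuoles of intracellular microbes. Gbp2 was at 0.33 in AtrxdE2 (SD 0.16) and 0.082 in AtrxdE2+TMPyP4, with 39.5 and 63.8, then 51.4 and 56.2. Gbp1 (Gbp2b) was close to background in 3 channels, with 7.16, 7.01 and 7.01, and had 15.4 in the treated pool, which gave a log2 ratio of 0.16 and 1.09 in the authors' value table. Gbp4 stood at 0.0085 and 0.19. Gbp5 had 77.96 and 75.7 on the first array, then 87.4 and 73.1 on the second, all within the local SD. The 4 genes did not move as a family in AtrxdE2, where 2 were above 0 and 2 below.

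The group of other Ifi genes was above 0 in AtrxdE2+TMPyP4 at all 5 measured members and in AtrxdE2 at 4 of 5. Ifi205, of the interferon-inducible nuclear p200 family, had 26.9 in wild type and 53.5 in AtrxdE2, then 11.2 and 18.1. It was higher in the mutant on each array (though -0.073 in AtrxdE2+TMPyP4 with median centring), while both channels of the second array lay below both of the first. A second Ifi205 probe was not above background in any channel, and members of this gene family resemble each other closely, so the probe may also read relatives. Ifih1, which encodes the cytosolic sensor MDA5 of long double-stranded RNA, had 67.6 and 78.1, then 40.7 and 53.6, with shifts of -0.34 in wild type and -0.29 in Cy3 between the arrays. Ifi44 was at 0.15 and 0.093 and Ifi35 at 0.073 and 0.19, both larger in the authors' value table (0.64 and 0.58, 0.27 and 0.47). Ifi30, a lysosomal thiol reductase of antigen processing, was at -0.040 and 0.0080. Ifi203 was above background only on the first array and Ifi202a (now Ifi202b) in no channel.

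The enzymes and GTPases used most often as interferon reporters were dim. Their ratios were close to 0 on the loess scale, where the offset pulls dim probes towards 0. Mx1 had 19.3 in wild type and 12.2 in AtrxdE2, then 19.1 and 15.8, and Mx2 had 11.1 and 11.7, then 10.002 and 5.71. The wild-type values of Mx1 agreed within 0.035 log2 units, and both mutant pools lay below them. In the authors' value table Mx1 stood at -0.71 and -0.32 and Mx2 at 0.040 and -0.85. Of 10 Oas genes, 6 were measured, with 3 of 6 above 0 on each array. Their ratios ran from -0.093 (Oas1c) to 0.15 (Oas1a) in AtrxdE2 and from -0.11 (Oasl2) to 0.069 (Oas1b) in AtrxdE2+TMPyP4. The authors' values of the same genes ran from -0.38 to 0.63 and from -0.36 to 0.72. Oas1a had 14.3 and 22.9, then 14.5 and 11.9, with the untreated mutant highest and the treated mutant lowest. Oas2 was at -0.0047 and -0.035. Oas3 was above background in AtrxdE2 only, at least 1.12-fold higher than in wild type. Oas1h was above background in wild type but not in AtrxdE2+TMPyP4 (at least 1.04-fold) and Oas1d the reverse (at least 1.06-fold), and Oas1f in no channel. Isg20, an exonuclease that degrades viral RNA, was at 0.051 and -0.041, and Isg20l2 at 0.10 and 0.091. Isg20l1 is now Aen, a nuclease gene induced by p53, and had 133 in wild type and 97.4 in AtrxdE2, then 132 and 138. Its wild-type channels were -0.0065 apart, and the untreated mutant was the lowest of the 4.

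Schlafen proteins are regulators of RNA and of growth in lymphoid and myeloid cells, and several are induced by type I interferon. Slfn8 had scaled signals of 5850 in wild type and 8758 in AtrxdE2 on the first array, and of 9862 in wild type and 7406 in AtrxdE2+TMPyP4 on the second. Wild type thus gave both the lowest and the highest of the 4 values. On the single-channel scale wild type differed by 0.70 log2 units between the arrays and the Cy3 channels by -0.36, so the 2-fold difference between the ratios shrank to less than 1.5-fold when the mutant pools were compared without wild type. With median centring in place of loess it was -0.71. The gene ranked 48 from the top of 13630 in AtrxdE2 over wild type, 13538 in AtrxdE2+TMPyP4 over wild type and 13618 in the difference. By signal the Slfn8 probe ranked 138 in wild type and 67 in AtrxdE2 on the first array, then 58 and 102, of 13630 genes. Such a rank describes the brightness of the probe and not the amount of transcript beside other genes. Slfn8 has close paralogs in its gene cluster. The probe's specificity, among them or beyond them, was not tested. The others were dim, with log2 ratios near 0 on the loess scale. Slfn4 had 6.29 and 8.26, then 6.75 and 8.81, with ratios of 0.020 and 0.024. Slfn5 had 19.8 and 23.7, then 21.3 and 22.8, with 0.061 and 0.025. In the authors' value table Slfn4 was at 0.35 and 0.34 and Slfn5 at 0.21 and 0.05. With median centring Slfn4 stood at -0.080 and -0.26 and Slfn5 at -0.12 in AtrxdE2+TMPyP4. Slfn3 was above background in the wild type of the first array only (at least 1.02-fold) and Slfnl1, a Schlafen-like gene, in all channels but the wild type of the second array (at least 1.09-fold higher in AtrxdE2+TMPyP4).

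**Figure D3:**
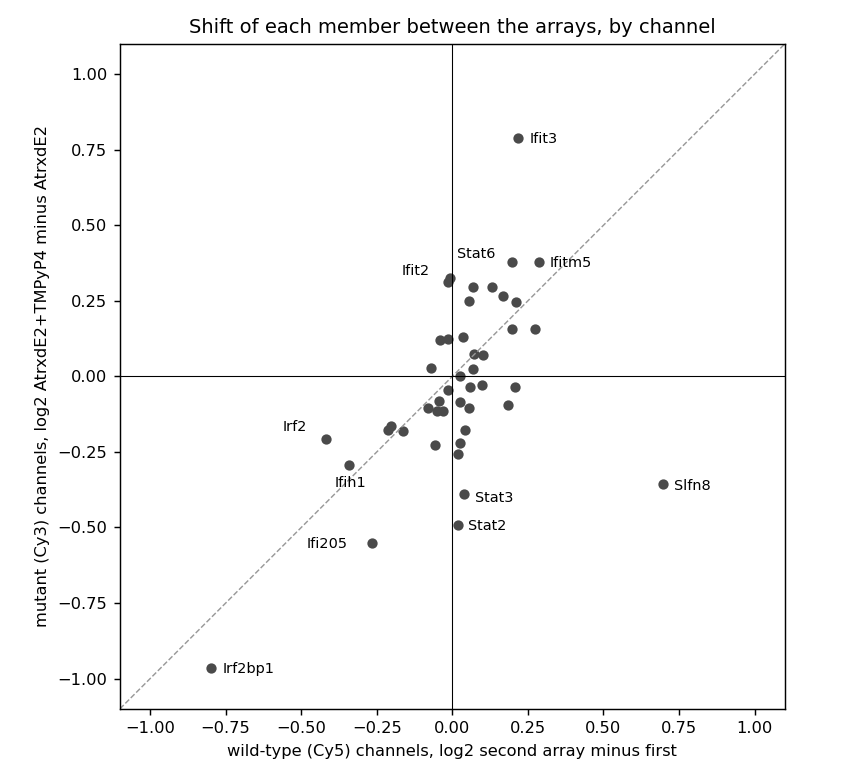
Log2 shift of each measured member between the arrays in the wild-type (Cy5) channels, on the horizontal axis, and in the mutant (Cy3) channels, on the vertical axis, after quantile normalization of single channels; on the dashed diagonal both channels shift alike. Stat2, Stat3, Ifit2 and Ifit3 lie off the diagonal through Cy3, Slfn8 mostly through wild type (0.70), and Irf2bp1 lies far out along the diagonal.

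Over the 45 measured members, the difference between the ratios was larger than the wild-type shift between arrays in 29 (64.4%), against 47.5% of all measured genes. The median size of the difference was 0.11 log2 units for members and 0.14 for all genes, and that of the wild-type shift 0.070 and 0.15. A wild-type shift of at least 0.5 was seen in 2 members, Slfn8 and Irf2bp1 (4.44%), against 8.44% of all genes. Most members are dim and the offset pulls both quantities towards 0, so members and all genes are not compared here at like signal.

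Lists of other pathway genes were taken by role; their only overlap with the name rule is Ifih1, among the sensors. On the loess scale none of these genes was past 2-fold in the 3 comparisons. In the authors' value table, 4 dim genes were: the interferon lambda receptor gene Il28ra (now Ifnlr1) in AtrxdE2 (1.1) and in the difference (-1.36), the chemokine gene Ccl2 in AtrxdE2+TMPyP4 (1.82) and in the difference (1.40), and Ifng (1.16) and Ccl3 (-1.0) in the difference. Of the ligand and receptor list, 13 of 27 genes were on the array by name and 10 were measured: 3 were above 0 in AtrxdE2 (median -0.056) and 6 in AtrxdE2+TMPyP4 (median 0.013). Ifnar1 and Ifnar2, the subunits of the type I receptor, were at -0.15 and -0.12 in AtrxdE2+TMPyP4, and Ifngr2 of the interferon gamma receptor at -0.23 in AtrxdE2, each within or at its local SD. Il10rb, a subunit of the interleukin-10 and interferon lambda receptors, was the highest of the list on both arrays, at 0.12 and then 0.33 (SD 0.22). Of 20 Jak kinase and inhibitor genes, 6 were above 0 in AtrxdE2 and 11 in AtrxdE2+TMPyP4. Tyk2, the Jak kinase of the type I receptor, had 182 in wild type and 211 in AtrxdE2, then 157 and 98.5, a ratio of 0.14 and then -0.45 (SD 0.21) and a difference of -0.59 (SD 0.28), past 1.5-fold. Socs5, a suppressor of cytokine signalling, had 81.2 and 59.1, then 108 and 153, with -0.25 and 0.36 and a difference of 0.61 (SD 0.29). Those were the 2 genes of this list past 1.5-fold in the difference, 1 in each direction.

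Among nucleic acid sensors and adaptors, 10 of 15 measured (Ifih1 among them) were above 0 in AtrxdE2 (median 0.077) and 9 in AtrxdE2+TMPyP4 (median 0.0070). Trim25, the ubiquitin ligase that activates the sensor RIG-I, was at 0.31 (SD 0.17) in AtrxdE2, and the double-stranded RNA receptor Tlr3 at 0.27 (SD 0.11) in AtrxdE2+TMPyP4. D430028G21Rik (now Mavs), the mitochondrial adaptor, was lowest in both, at -0.21 and -0.10. The list of other interferon-induced genes had 35 measured, with 20 above 0 in AtrxdE2 (median 0.032) and 19 in AtrxdE2+TMPyP4 (median 0.0034). D11Ertd759e (now Rnf213), a large ubiquitin ligase, was at 0.38 and then -0.17, with the lowest difference of the list, -0.55 (SD 0.23): its signals were 67.5 in wild type and 104 in AtrxdE2, then 74.6 and 57.97. Irgm (now Irgm1), a GTPase of autophagy, was at 0.021 and then 0.44 (SD 0.25), Tyki (now Cmpk2) at -0.39 and -0.079, and Ly6e lowest but for Tyki in AtrxdE2, at -0.38. Cxcl9 and Cxcl10, chemokines that interferon gamma induces strongly, were not above background in all channels.

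**Figure D4:**
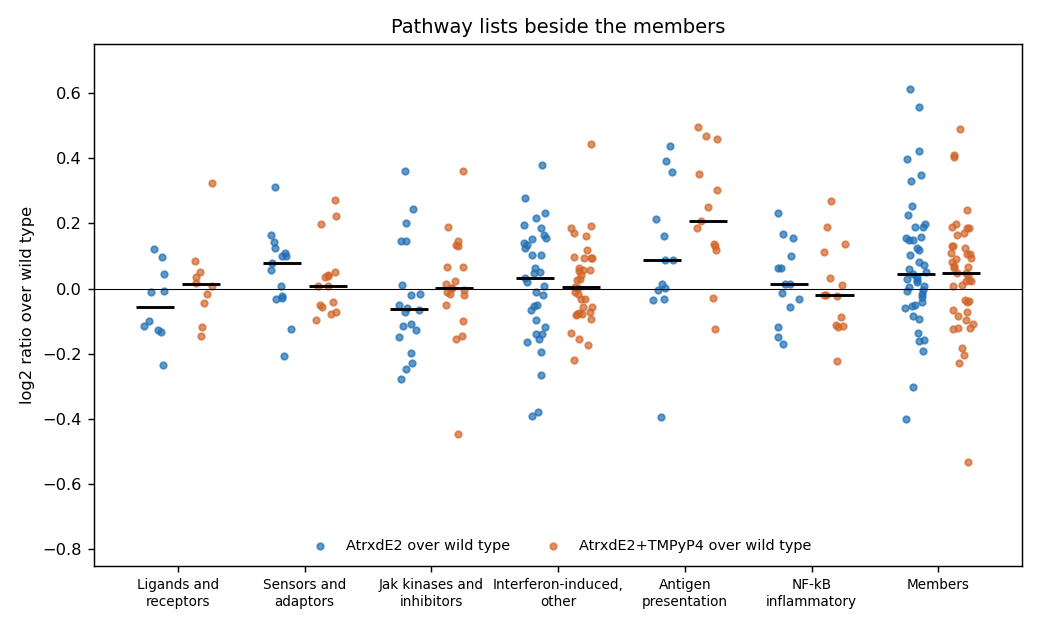
Log2 ratio over wild type of each measured gene of 6 pathway lists and of the members, on the AtrxdE2 array (blue) and the AtrxdE2+TMPyP4 array (orange); black bars are medians and each point is 1 gene on 1 array. Antigen presentation has the highest median in AtrxdE2+TMPyP4, 0.21, and on this scale no gene of any list reaches 2-fold.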

How the data were processed

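Per the file headers, the deposited scanner tables hold the median intensity of each spot in Cy5 and Cy3, with flags at 3 scanner gains. The scanner's software is not given in the sources used here. Per the labels, the authors' value table holds log2 ratios, mutant against wild type, normalized. Taking log2(Cy3/Cy5) of the signals above the blank mean gave these values after subtraction of 0.65 (AtrxdE2) or 1.17 (AtrxdE2+TMPyP4), within 0.02 for at least 99.99% of values. The median of each column is 0.0.

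From the scanner tables, background was corrected by normexp (limma 3.58.1, R 4.3.3; offset 50; blank spots' mean without a share of 0.05 at each end), followed by loess with control spots at weight 0. A probe was above background past the blank mean plus 2 SD. Of the 45 measured members each had 1 measured probe. The platform annotation names the probes. Of 55 member symbols, 51 are current in RefSeq (GRCm38.p6) and 4 were renamed. A further 10 annotated symbols, which fit the rule only in their current form, are not analysed here. Among them is Mpa2 (now Gbp4), so the member Gbp4 was read from the probe annotated Gbp4 alone.

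With 1 array per group no test was run. All Schlafen genes, Stat2, Irf9, Irf1, the 5 highest and 5 lowest members of each comparison and members past 2-fold were named with all signals; pathway genes were named from the 3 highest and 3 lowest of each list. Members, lists and tests were chosen with earlier results of these data known. Scripts were checked on simulated data.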

Additional observations from a re-analysis of the deposited data

How the results depend on the processing

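Counts of members past 2-fold depended on how dim probes were treated. In AtrxdE2 over wild type, 1 member was lower with plain subtraction of the blank mean and 1 by the authors' values, against 0. In AtrxdE2+TMPyP4 over wild type, plain subtraction gave 1 higher and 1 lower and the authors' values 1 higher, against 0. In the difference, plain subtraction gave 3 higher, the authors' values 3 and the local background 1, against 0, and the single member lower (Slfn8) became 0 with median centring and 0 with the Cy3 channels alone. Medians over members moved by less than the SD between probes of 1 gene (0.20, 0.18 and 0.24 in the 3 comparisons) under every alternative run. This includes the run without Slfn8, which was added after seeing the data. That SD describes single probes and exceeds the medians themselves, so it cannot show that they are stable. In AtrxdE2 over wild type the median rose from 0.045 to 0.17 with plain subtraction and 0.18 by the authors' values. In AtrxdE2+TMPyP4 over wild type it went from 0.048 to 0.15 and 0.11, and ranged across 0 (-0.0024 with the local background). Of 414 values of the 21 fully described members under alternatives, 392 kept their sign and 22 did not. Of these 22, 12 came with median centring and 5 with the local background. The 63 values without the background filter and the 15 from probes above the median signal repeated the main ones, save for Ifi205. The other members have 1 probe each, so their signs were fixed in advance in these runs. The sign held under all alternatives run for 18 of 21 members in AtrxdE2, 13 of 21 in AtrxdE2+TMPyP4 and 15 of 21 in the difference. With plain subtraction 48 of 63 values were over 1.5 times larger. The causes were not tested. No paired analysis was possible because each group has 1 sample. Signal over background limits the 36 members below the median signal.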

Other observations

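Antigen presentation, which interferon gamma raises in many cells, was not part of the name rule. Of its 13 measured genes, 9 were above 0 in AtrxdE2 (median 0.088) and 11 in AtrxdE2+TMPyP4 (median 0.21; 0.30 in the authors' value table), against 49.3% and 52.8% of all measured genes. The class II genes stood at the upper end on both arrays: the invariant chain gene Cd74 at 0.44 and 0.47 (SD of genes nearest in signal 0.18 on each) and H2Aa (now H2-Aa) at 0.36 and 0.49. Cd74 had scaled signals of 79.1 in wild type and 127 in AtrxdE2, then 37.96 and 72.7, so its wild-type level on the second array was far below that on the first. Tapbp, which loads class I molecules, was at 0.39 and 0.46. The immunoproteasome subunit gene Psmb10 differed in sign, at -0.39 and 0.25, with 883 and 681, then 968 and 1232. No gene of the list was past 2-fold on either array or in the difference.

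Inflammatory genes of the NF-kB route did not shift as a group, with 8 of 14 measured above 0 in AtrxdE2 (median 0.014) and 6 in AtrxdE2+TMPyP4 (median -0.021). The vessel adhesion molecule gene Vcam1 was highest on both arrays, at 0.23 and 0.27, and the NF-kB subunit gene Rela lowest, at -0.17 and -0.22, all within about 1 SD of genes nearest in signal. The cytokine genes Il6 and Tnf and the chemokine genes Cxcl1 and Ccl4 were not above background in all channels.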
